A study of Caenorhabditis elegans with 12 samples.

Results

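The 8 Caenorhabditis elegans genes described here make or split trehalose. They are the trehalose-6-phosphate synthase genes tps-1 and tps-2, the trehalose-6-phosphate phosphatase gene gob-1, and the trehalase genes tre-1 to tre-5. They were chosen by name for their place in the pathway and not by a rule on their values, but with earlier results of these data known. They are 8 of the 22113 genes that the tables describe. All 8 passed the filter on low counts and were tested. Polyadenylated RNA of whole animals was sequenced in 12 libraries, 3 for each of 4 groups. The groups were daf-2 single mutants (strain CB1370, allele e1370) and daf-2;daf-42 double mutants (strain LJ2703, alleles e1370 and ys54), each harvested 52 h and 60 h after egg laying at 25 °C. Every animal therefore carried daf-2(e1370), a mutation of the insulin-like receptor that sends larvae into dauer, a resistant arrested stage, at raised temperature, and no animal with a normal daf-2 gene was measured. The double mutant harvest at 60 h contained live and dead larvae of L2d, the stage before dauer. Genotype there cannot be told apart from larval death or from any difference in stage from daf-2. The genotype comparisons ask what differs when daf-42 is mutated as well as daf-2. The time comparisons ask what changes from 52 h to 60 h, around the time of dauer entry.

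Trehalose is a disaccharide of glucose that serves nematodes as a reserve sugar and as a protectant against drying and other stresses. A synthase joins UDP-glucose to glucose-6-phosphate, a phosphatase removes the phosphate from the product, and trehalases split the finished sugar back into glucose. Dauer larvae and daf-2 mutants are known for high trehalose, and dauer larvae that lack both synthases do not survive drying.

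The synthase genes are tps-1 (WBGene00006602, ZK54.2) on chromosome X from 17467121 to 17474534, minus strand, and tps-2 (WBGene00006603, F19H8.1) on chromosome II from 14600902 to 14610554, plus strand. The phosphatase gene gob-1 (WBGene00001649, H13N06.3) lies on chromosome X from 15493602 to 15497504, plus strand. The trehalase genes are spread over 5 chromosomes. They are tre-1 (WBGene00006607) on chromosome I from 6554729 to 6558665, plus strand, tre-2 (WBGene00006608) on chromosome IV from 6876731 to 6883442, minus strand, and tre-3 (WBGene00006609) on chromosome V from 11709769 to 11715903, minus strand. The other two are tre-4 (WBGene00006610) on chromosome X from 13472155 to 13475926, plus strand, and tre-5 (WBGene00006611) on chromosome II from 52997 to 55304, minus strand. All positions are those of the WBcel235 build, and all 8 genes are protein-coding. The summed estimated count of each of the 8 genes was whole in all 12 libraries, to within 0.01 and rounding, so no read shared with another gene was detected.

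Libraries held 30011686 to 43519410 estimated counts. Expression is given as CPM, counts scaled to a common library size after TMM, for comparisons of 1 gene between samples, and as TPM, which is also per transcript length, for comparisons between genes. Log2 fold changes and standard errors come from 1 edgeR fit of all libraries, as the double mutant minus daf-2 or 60 h minus 52 h, and a difference was called at an adjusted p under 0.05 over the 16371 genes tested. The targeted gene, daf-42, was at 879.1, 685.1 and 777 CPM in the double mutant at 52 h, where the daf-2 libraries held 1011, 1853 and 2078 CPM. The double mutant at 60 h held 272.9, 74.89 and 149.2 CPM of it, and daf-2 held 969.1, 1960 and 532.3 CPM. What ys54 does to the daf-42 transcript is not given in the sources used here, so these levels check the labels only in part. Markers of intestine, epidermis, body wall muscle, neurons and germline were all detected in every group, as whole animals would give. The summed CPM of the 3 muscle markers was lower in the double mutant at 60 h (1867 to 7487) than in any other library (9128 or more). Of the 4 dauer-associated markers, 3 rose from 52 h to 60 h in both genotypes (hsp-12.6, col-183 and col-40), and sod-3 was not called in either. In bulk RNA, fewer cells of a type and less RNA per cell cannot be told apart. Differences that involve the double mutant at 60 h also ran with transcript length. Across these genes the Spearman correlation of log2 fold change with length was -0.46 between the genotypes at 60 h and -0.54 over time in the double mutant, against 0.26 between the genotypes at 52 h and -0.05 over time in daf-2. The gap between transcript length and effective length, which follows the fragment length, was 218.3 to 222.9 bases in the double mutant at 60 h and 223.8 to 238.4 bases in all other libraries.

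Per length, tps-2 and tre-2 were the most abundant transcripts of the pathway. In daf-2 at 52 h the levels were 124.7 ± 6.204 TPM (SD, n = 3) for tps-2 and 116.6 ± 18.52 TPM for tre-2, and the ranges of the 2 genes overlapped. Below them came gob-1 at 73.33 ± 12.92 TPM, tre-1 at 45.26 ± 3.279 TPM, tps-1 at 35.79 ± 3.673 TPM, tre-3 at 9.122 ± 0.1656 TPM, tre-4 at 5.284 ± 1.834 TPM and tre-5 at 0.7782 ± 0.114 TPM, each with a range apart from its neighbour's. The order was the same in the double mutant at 52 h, where the ranges of tre-1 and tps-1 also overlapped. In daf-2 at 60 h, tre-5 had moved from last to the sixth place with 15.38 ± 1.987 TPM, above tre-3 (5.935 ± 0.8352 TPM) and tre-4 (4.29 ± 1.163 TPM) and with no overlap with its neighbours in the order. In the double mutant at 60 h tre-2 stood first at 55.13 ± 12.52 TPM and tps-2 second at 37.72 ± 18.7 TPM, but their ranges overlapped. There tre-5 was last again at 2.607 ± 0.8283 TPM, within the range of tre-4.

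**Figure D1:**
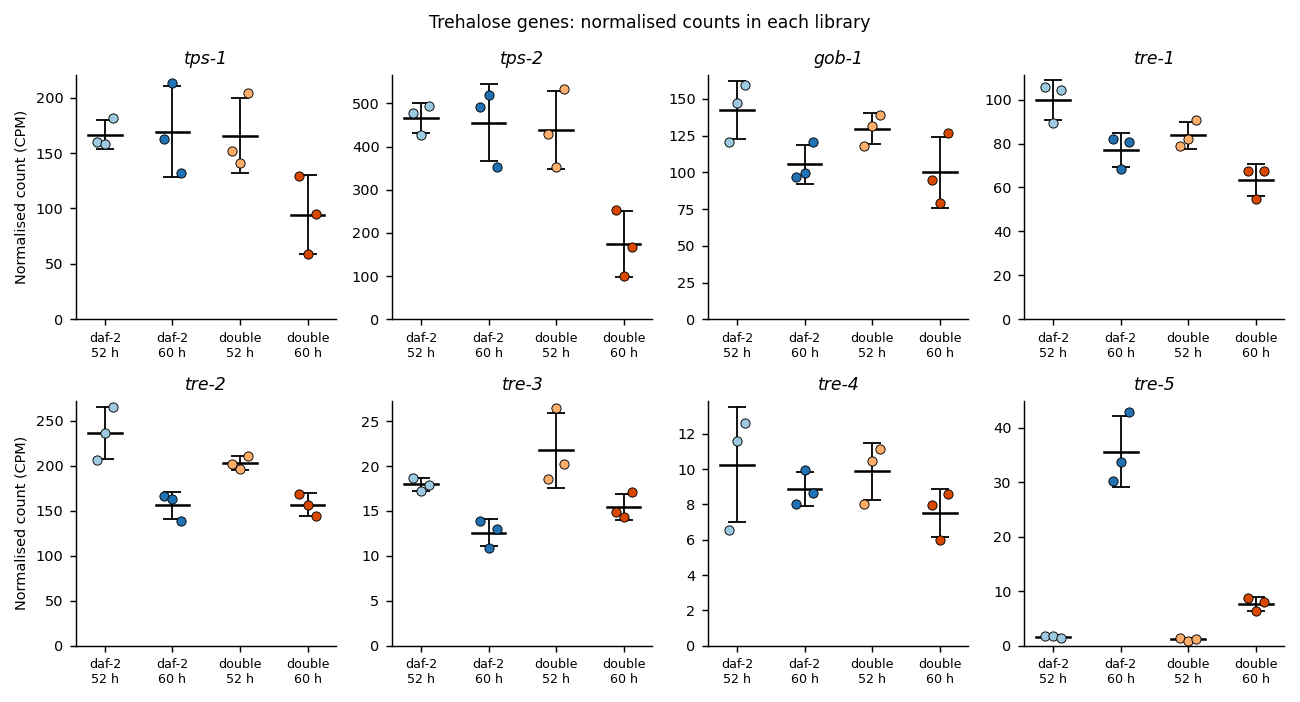
Normalised counts (CPM, vertical axis, each panel with its own scale from 0) of the 8 trehalose genes in each library. Points are libraries, horizontal lines are means and error bars are SD (n = 3 per group). In tre-5 the 3 daf-2 libraries at 60 h lie at 30.14 to 42.81 CPM and every other library lies at or below 8.761 CPM. In tps-2 the 3 double mutant libraries at 60 h (99.73 to 252.4 CPM) lie below all others.

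In CPM, both synthase genes were lower in the double mutant at 60 h than in any other group. These differences depended on how transcript length was treated, as given below. The tps-2 gene encodes the synthase with the more abundant mRNA. It was at 478.2, 426 and 493 CPM in daf-2 at 52 h, at 429.8, 353.5 and 533.2 CPM in the double mutant at 52 h, at 492.3, 519.4 and 353 CPM in daf-2 at 60 h, and at 252.4, 99.73 and 168.2 CPM in the double mutant at 60 h. The last group lay wholly below the others, which overlapped each other. Between the genotypes at 60 h it differed by -1.39 on the log2 scale (SE 0.32, edgeR adjusted p = 0.00709), a fold of 2.62. The change over time in the double mutant was -1.34 (SE 0.32, edgeR adjusted p = 0.00737). These comparisons share the 3 double mutant libraries at 60 h, so they are not independent. No difference was called for tps-2 between the genotypes at 52 h (-0.09, SE 0.31) or over time in daf-2 (-0.03, SE 0.31). Whether the change over time differed between the genotypes was tested as an interaction, which was -1.31 (SE 0.44) and did not pass (edgeR adjusted p = 0.0738). It passed when replicate 3 of daf-2 at 60 h (-1.46) or replicate 1 of the double mutant at 60 h (-1.68) was left out. Those fits called far more genes of any kind for the interaction, 4136 of 16581 and 4670 of 16684, against 1558 of 16371 in the reported fit.

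The tps-1 gene, which encodes the other synthase, was at 160.4, 158.3 and 181.5 CPM in daf-2 at 52 h, at 151.7, 141.1 and 203.9 CPM in the double mutant at 52 h, at 162.4, 213.1 and 132.3 CPM in daf-2 at 60 h, and at 129.7, 58.86 and 94.92 CPM in the double mutant at 60 h. The last group was again wholly below the others, by a narrow margin (129.7 against 132.3 CPM). At 60 h the genotypes differed in it by -0.84 (SE 0.29, edgeR adjusted p = 0.0402) and its change over time in the double mutant was -0.81 (SE 0.29, edgeR adjusted p = 0.0405). Both calls lie close to the threshold. The first held in 3 of the 12 fits that each left out 1 library, those without replicate 3 of the double mutant at 52 h, replicate 3 of daf-2 at 60 h or replicate 1 of the double mutant at 60 h, and the value ranged from -1.13 to -0.57. The second held in 3 of 12 fits, those without replicate 2 or 3 of daf-2 at 60 h or replicate 1 of the double mutant at 60 h, with a range of -1.11 to -0.56. The labels give no pairing, but same-numbered libraries tended to deviate together between the times in the double mutant. With the replicate block the change over time there was -0.83 and was not called (edgeR adjusted p = 0.0568). In a model of only those groups, the block gave -0.86 and the call was kept (edgeR adjusted p = 0.0368), and without the block it was lost (-0.80, edgeR adjusted p = 0.0795). The genotype call at 60 h was lost without the count filter (-0.80, edgeR adjusted p = 0.0515), with only the groups compared (-0.88, edgeR adjusted p = 0.123) and at a minimum fold change of 1.5 (edgeR adjusted p = 0.246). With an offset for transcript length, the genotype difference at 60 h and the change over time in the double mutant both changed sign, and neither was called. The interaction of tps-1 was -0.83 (SE 0.40, edgeR adjusted p = 0.168).

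The synthases together summed to 160.5 ± 9.859 TPM in daf-2 and 157.2 ± 40.02 TPM in the double mutant at 52 h, and to 161.8 ± 55.33 TPM and 52.77 ± 26.56 TPM at 60 h. On log2(TPM + 1) the median of all genes was itself shifted, by -0.33 from the reported fit for genotype at 60 h. The ratio of tps-2 to tps-1 TPM was 2.27 to 2.958 in the double mutant at 60 h and 3.206 to 4.26 in the other 9 libraries. Over the 12 libraries the log2 CPM of tps-1 and tps-2 correlated at 0.97 (Pearson) and 0.99 (Spearman), where the points share their groups and library make-up. The muscle markers unc-54 (-2.17) and unc-15 (-1.64) were called in the same direction for genotype at 60 h, and the third, myo-3, was at -1.51 and not called. All 3 muscle markers fell over time in the double mutant. Other tissue markers were also called for genotype at 60 h. The germline gene glh-1 was lower (-1.13, edgeR adjusted p = 0.033), and the intestinal gene ges-1 (0.87, edgeR adjusted p = 0.00809) and the epidermal collagen gene dpy-7 (1.08, edgeR adjusted p = 0.0248) were higher. The other germline marker, pgl-1 (-0.67), was not called. Nor were the intestinal markers elt-2 (0.45) and act-5 (-0.06), or the epidermal markers lin-26 (-0.64) and elt-1 (-0.10). The part of these tissue markers in the synthase result was not tested.

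The phosphatase gene gob-1 removes the phosphate from trehalose-6-phosphate, which is toxic to larvae when it builds up. In daf-2 its level was 142.4 ± 19.88 CPM (SD, n = 3) at 52 h and 105.7 ± 13.25 CPM at 60 h. In the double mutant the levels were 129.7 ± 10.59 and 100 ± 24.27 CPM. The libraries of the groups overlapped in every comparison. The genotype difference at 60 h was -0.08 (SE 0.21), and the changes over time were -0.43 (SE 0.21) in daf-2 and -0.38 (SE 0.21) in the double mutant. None was called (edgeR adjusted p = 0.784, 0.143 and 0.169).

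Among the trehalase genes, tre-5 rose in both genotypes, and far more in daf-2. It was at 1.841, 1.793 and 1.355 CPM in daf-2 at 52 h, at 1.463, 0.7936 and 1.172 CPM in the double mutant at 52 h, at 30.14, 33.72 and 42.81 CPM in daf-2 at 60 h, and at 8.761, 6.326 and 7.932 CPM in the double mutant at 60 h. Within each genotype the 60 h libraries all lay above the 52 h libraries, and at 60 h all daf-2 libraries lay above all double mutant libraries. At 52 h these values rest on 32 to 73 counts per library, and at 60 h on 977 to 1701 counts in daf-2 and 204 to 293 in the double mutant. The rise in daf-2 was 4.42 on the log2 scale (SE 0.26, edgeR adjusted p = 2.45e-07), a fold of 21.34, which ranked 190 from the highest of 16371 genes. In the double mutant the rise was 2.75 (SE 0.25, edgeR adjusted p = 1.14e-05), a fold of 6.75. The genotypes differed by -2.21 at 60 h (SE 0.23, edgeR adjusted p = 3.39e-05), a fold of 4.63. At 52 h they differed by -0.55 (SE 0.25), which was not called (edgeR adjusted p = 0.822). The interaction was called, at -1.66 (SE 0.34, edgeR adjusted p = 0.0128). The first 3 calls held in all 25 settings run and the interaction in all 23.

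The make-up of trehalase mRNA differed between the groups. The share of tre-5 in the summed TPM of the 5 trehalase genes was 0.4477% ± 0.1061 in daf-2 and 0.3495% ± 0.1103 in the double mutant at 52 h, and 12.01% ± 2.552 and 2.963% ± 0.3492 at 60 h (SD, n = 3). The largest share was that of tre-2 in every group, with its lowest mean, 55.06% ± 4.316, in daf-2 at 60 h and its highest, 65.65% ± 2.971, in daf-2 at 52 h. The summed trehalase level was 177 ± 21.42 TPM and 154.7 ± 18.93 TPM at 52 h and 130.9 ± 24.63 TPM and 86.81 ± 19.69 TPM at 60 h, in daf-2 and the double mutant respectively. Its mean was not higher at 60 h than at 52 h in either genotype. These sums are on TPM, a scale on which the median of all genes was itself shifted. On log2(TPM + 1) the shift was -0.33 for genotype at 60 h and -0.43 for time in the double mutant. In CPM, no trehalase gene but tre-5 was called between the genotypes at 60 h (tre-2 at 0.00, tre-1 at -0.28).

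The tre-2 gene fell over time in daf-2. It was at 206.9, 237.1 and 265.8 CPM in daf-2 at 52 h and at 166.4, 163.2 and 139.2 CPM at 60 h, and at 201.6, 196.8 and 211.3 CPM at 52 h and 169.2, 156.8 and 143.8 CPM at 60 h in the double mutant. In both genotypes the later libraries lay below the earlier ones, and the genotypes overlapped at both times. The change was -0.60 in daf-2 (SE 0.18, edgeR adjusted p = 0.024) and -0.38 in the double mutant (SE 0.18), which was not called (edgeR adjusted p = 0.114). DESeq2 called tre-2 lower over time in the double mutant also (-0.39, DESeq2 adjusted p = 0.0177). With an offset for transcript length its value there changed sign and was not called. The interaction was 0.22 (SE 0.26, edgeR adjusted p = 0.556), so a difference between the genotypes was not shown. The call in daf-2 was lost when any of 3 daf-2 libraries was left out: replicate 2 (-0.60) or 3 (-0.51) of the 52 h group, or replicate 3 of the 60 h group (-0.52).

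The tre-3 gene fell over time in both genotypes in the reported fit, with calls close to the threshold. It was at 18.71, 17.23 and 17.94 CPM at 52 h and 13.85, 10.9 and 12.96 CPM at 60 h in daf-2, and at 18.54, 26.49 and 20.24 CPM and then 14.9, 14.33 and 17.14 CPM in the double mutant. The later libraries lay below the earlier ones in each genotype, and at 60 h the double mutant libraries lay above those of daf-2. The changes were -0.51 in daf-2 (SE 0.17, edgeR adjusted p = 0.0336) and -0.49 in the double mutant (SE 0.17, edgeR adjusted p = 0.0364), and the interaction was 0.02 (SE 0.24). The genotype difference at 60 h, 0.30 (SE 0.17), was not called (edgeR adjusted p = 0.184). Leaving out 1 library at a time kept the first call in 7 and the second in 5 of 12 fits, with ranges of -0.59 to -0.47 and -0.60 to -0.33. The first was lost without any replicate of daf-2 at 52 h or without replicate 2 or 3 of the 60 h daf-2 group. The second was lost without replicate 2 or 3 of either genotype at 52 h or without any double mutant replicate at 60 h. With the replicate block the change in the double mutant was -0.50 and was not called (edgeR adjusted p = 0.0571), nor was it in a blocked model of only those groups (-0.48, edgeR adjusted p = 0.105). The call in the double mutant was also lost with upper-quartile scaling (-0.44, edgeR adjusted p = 0.0599), without the count filter (edgeR adjusted p = 0.0574) and with only the groups compared (edgeR adjusted p = 0.0819). With an offset that removes the trend with transcript length, neither change was called: it was -0.48 in daf-2 (edgeR adjusted p = 0.0548) and -0.10 in the double mutant (edgeR adjusted p = 0.686).

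The other trehalase genes, tre-1 and tre-4, were not called in any comparison of the reported edgeR fit. From 52 h to 60 h the tre-1 level went from 99.79 ± 8.895 to 77.01 ± 7.55 CPM in daf-2 and from 83.79 ± 6.068 to 63.27 ± 7.227 CPM in the double mutant. Its libraries did not overlap between times in either genotype or between genotypes at 60 h, but its log2 differences reached no further than -0.41, with an SE of 0.17. The tre-4 level had its lowest mean, 7.503 ± 1.353 CPM, in the double mutant at 60 h and its highest, 10.25 ± 3.241 CPM, in daf-2 at 52 h, and its groups overlapped in every comparison. Other tests did call them over time. DESeq2 called tre-1 lower at 60 h in daf-2 (-0.40, DESeq2 adjusted p = 0.019) and in the double mutant (-0.42, DESeq2 adjusted p = 0.0108). On log2(TPM + 1), limma called both lower at 60 h in the double mutant, tre-1 by -0.88 (limma adjusted p = 0.00641) and tre-4 by -0.70 (limma adjusted p = 0.048). On that scale the median gene itself lay at -0.42 and 53.4% of genes were called. With an offset for transcript length the tre-1 value there changed sign and was not called.

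**Figure D2:**
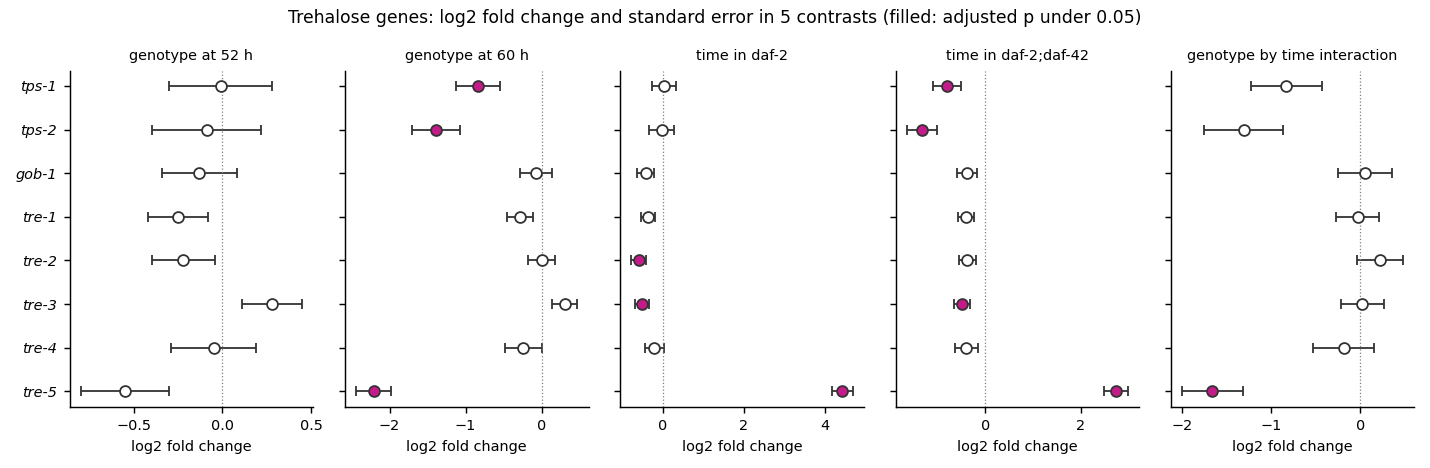
Log2 fold change (horizontal axis, each panel with its own scale) of the 8 trehalose genes in 5 contrasts, with error bars of 1 standard error from the edgeR fit of 12 libraries. Filled points passed an adjusted p of 0.05 over 16371 genes. No gene passed for genotype at 52 h, and tre-5 is filled in the other 4 panels, at -2.21, 4.42, 2.75 and -1.66.

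Set against all genes, the counts of called members were near the background in every comparison. For genotype at 52 h, 0 of 8 members were called by edgeR and by DESeq2, against 0.635% of all genes tested, and tre-5 alone had an unadjusted p under 0.05 (0.0491). For genotype at 60 h, 3 of 8 were called, all lower in the double mutant, against 34.4% of all genes called and 17% called lower. For time in daf-2, 3 of 8 were called, against 34.7% of all genes. The 1 higher and 2 lower members compare with 18.5% and 16.2% of genes called in those directions. For time in the double mutant, 4 of 8 were called, against 41%, with 1 higher and 3 lower where 22.4% and 18.6% of genes were called higher and lower. For the interaction, 1 of 8 was called against 9.52%. The median log2 fold change of the members was -0.26 between the genotypes at 60 h, -0.29 over time in daf-2 and -0.40 over time in the double mutant, where the medians of all genes were -0.01, 0.07 and -0.00. The share of genes whose libraries did not overlap between groups was 18.2% between the genotypes at 52 h and 38.8% at 60 h, and over time it was 48.7% in daf-2 and 55.7% in the double mutant, so a lack of overlap was common here.

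The synthase results and the fall of tre-3 over time in the double mutant depended on how transcript length was treated, and tre-5 kept its calls. The fall of tre-3 in daf-2 hardly changed in size, and its call, close to the threshold, was lost. The tps-1 transcripts are 4204 to 4407 bases long and the longer tps-2 transcript is 3839 bases, whereas the main transcripts of the other members are shorter, from 1937 bases in the b form of tre-2 to 2168 bases in tre-1, with 2107 bases in tre-5. An offset that removes each library's trend with length was fitted as an alternative. With it the genotype difference of tps-1 at 60 h changed sign to 0.21 and was not called (edgeR adjusted p = 0.32), and that of tps-2 shrank to -0.62 and was still called (edgeR adjusted p = 0.0108). Over time in the double mutant tps-1 changed sign to 0.41 (edgeR adjusted p = 0.0589) and tps-2 was at -0.43 and no longer called (edgeR adjusted p = 0.0533). The tre-5 values stayed called, at -1.87 for genotype at 60 h, 3.22 for time in the double mutant and -1.23 for the interaction. With the offset tre-3 was called higher in the double mutant at 60 h (0.60, edgeR adjusted p = 0.0276). Of all genes the offset called 35% in the first of these comparisons, 37.7% in the second and 15.3% in the interaction.

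TPM gave larger differences than the reported fit for the synthases. On log2(TPM + 1) the limma test gave -1.21 for tps-1, -1.77 for tps-2 and -2.20 for tre-5 for genotype at 60 h, and tre-1 was also called (-0.65, limma adjusted p = 0.0288). Over time in the double mutant all 8 members were called, and the rise of tre-5 was 1.21 there, on a scale whose pseudocount shrinks changes of low levels. The TPM scale shifted the median of all genes by -0.33 in the first comparison and by -0.43 in the second, and it called 38.4% and 53.4% of the genes tested on it. Relative to that shift, gob-1 (-0.48), tre-2 (-0.38) and tre-4 (-0.49) lay near the median gene in the genotype comparison at 60 h. In the same comparison the synthase values went beyond those of the reported fit (-0.84 and -1.39) by about the size of that shift.

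**Figure D3:**
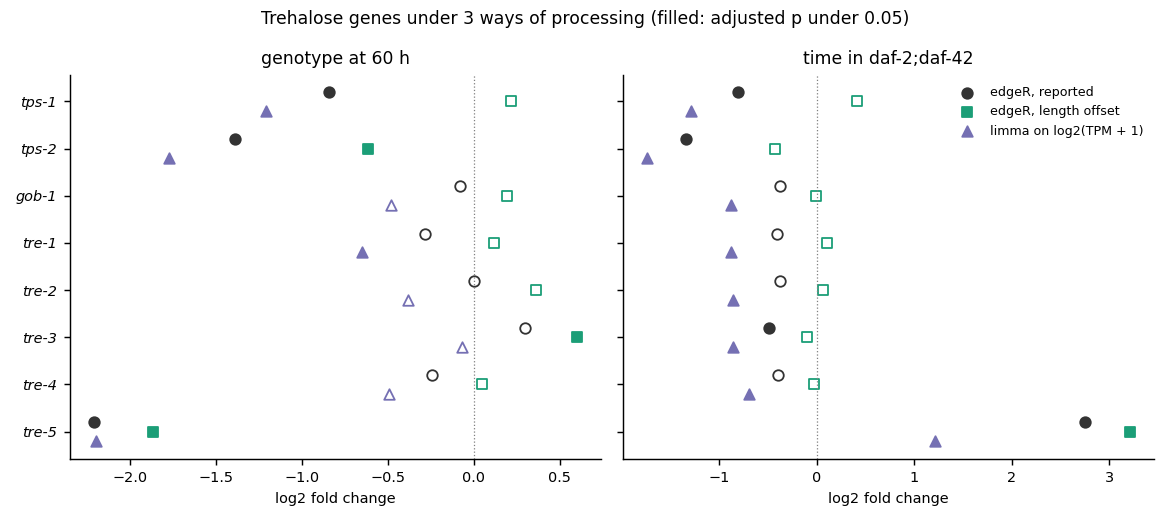
Log2 fold change (horizontal axis) of the 8 trehalose genes for genotype at 60 h and time in daf-2;daf-42 under 3 ways of processing: the reported edgeR fit (circles), edgeR with a length offset (squares) and limma on log2(TPM + 1) (triangles). Filled symbols passed an adjusted p of 0.05. For genotype at 60 h the squares of tps-1 and tps-2 lie at 0.21 and -0.62 and their circles at -0.84 and -1.39, while the 3 symbols of tre-5 lie between -2.21 and -1.87.

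Estimated counts divide reads between overlapping transcripts, so the shares of a gene's transcripts are uncertain and were not tested. The a form of tps-1 held 74.47% ± 2.567 of its counts in daf-2 and 83.15% ± 6.775 in the double mutant at 52 h, and 92.63% ± 8.169 and 77.54% ± 12.86 at 60 h (SD, n = 3). The genotypes overlapped at 60 h, and at 52 h the daf-2 libraries (71.55% to 76.34%) lay below those of the double mutant (76.93% to 90.37%). Over time in daf-2 the 60 h libraries (83.34% to 98.67%) lay above all those at 52 h. The long a form of tps-2 held 94.09% to 97.77% on average and the b form of gob-1 95.46% to 99.73%. The tre-2 counts were divided between its a form (39.88% to 45.85%) and its b form (54.1% to 60.02%), and those of tre-3 were nearly all in its b form.

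Neighbours on the genome were examined because how strand was used in counting is not given in the sources used here, although the library kit keeps strand. The whole of tre-5 lies inside sptl-1 on the opposite strand, with 0 shared exonic bases. The sptl-1 level did not follow tre-5: it was 101.3 ± 4.771 CPM in daf-2 at 52 h and 52.13 ± 9.98 CPM at 60 h, a fall of -0.96 on the log2 scale (edgeR adjusted p = 0.00116). The tps-2 gene contains arl-3 on the same strand, with 24 shared exonic bases, and F19H8.2 on the opposite strand, with 0. For genotype at 60 h arl-3 was also lower in the double mutant (-1.11, edgeR adjusted p = 0.0053), from 19.65 ± 3.126 CPM to 9.086 ± 1.612 CPM, against 173.4 ± 76.45 CPM for tps-2 itself. The tre-4 gene shares 51 exonic bases with efn-3 on the opposite strand.

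The genes that supply the precursors of trehalose, or draw on them, were taken from a list of 23, of which 22 were tested. For genotype at 52 h, 0 of 22 were called by edgeR and by DESeq2. For genotype at 60 h, 1 was higher and 3 were lower in the double mutant, with a median of -0.23, where 34.4% of all genes were called and 17% were called lower. D1005.2, a UTP-glucose-1-phosphate uridylyltransferase gene of the step that makes UDP-glucose, was higher (0.60, edgeR adjusted p = 0.0167). The lower genes were icl-1, the enzyme of the glyoxylate cycle that lets nematodes make sugar from fat (-1.31, edgeR adjusted p = 0.0471), the acid alpha-glucosidase related gene aagr-1 (-0.95, edgeR adjusted p = 0.00788) and the hexokinase gene hxk-2 (-0.78, edgeR adjusted p = 0.0384). Of the 7 precursor supply genes on the list only D1005.2 and hxk-2 were called. Among the uncalled ones, rml-1 (-0.21) was at 179.1 TPM in daf-2 at 60 h, against 3.741 TPM for D1005.2. The hexokinase gene hxk-1 (0.50) was at 62.63 TPM there, against 37.15 TPM for hxk-2. With the length offset the split was 4 higher and 1 lower, hxk-2 and D1005.2 stayed called and icl-1 (-0.66) and aagr-1 (-0.32) did not. That offset also called hxk-1 higher (0.79, edgeR adjusted p = 0.0252). With limma on log2(TPM + 1) it was 0 higher and 7 lower. When 1 library was left out the count was 2 for replicates 2 and 3 of daf-2 at 52 h, for all 3 replicates of the double mutant at 52 h, for replicates 1 and 2 of daf-2 at 60 h and for replicate 2 of the double mutant at 60 h. It was 7 for replicate 3 of daf-2 at 60 h and 8 for replicate 1 of the double mutant at 60 h. Over all genes, these last fits called 7402 of 16581 and 7587 of 16684, and the fits with a count of 2 called 3013 to 5170.

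Over time the called genes of this list were all lower at 60 h in the reported fit. In daf-2, 5 of 22 fell, with a median of -0.39 over the list, where 34.7% of all genes were called and 16.2% were called lower. The 4 largest falls were those of aagr-4 (-1.84) and aagr-2 (-1.28), both acid alpha-glucosidase related, of the phosphoenolpyruvate carboxykinase gene pck-1 (a fold of 2.00) and of D1005.2 (-0.86). The more abundant pck-2, at 521.1 TPM in daf-2 at 60 h against 127.9 TPM for pck-1, was at 0.01 and not called. The count was 10 with the length offset, 9 lower and 1 higher, the higher one being hxk-2 (0.47, edgeR adjusted p = 0.0376). That offset called 45.3% of all genes there. The count was 3 without replicate 3 of daf-2 at 52 h, where 4429 of 16618 genes were called. In the double mutant, 9 of 22 fell, with a median of -0.55, where 41% of all genes were called and 18.6% were called lower. Of these 9, 7 were among the 10 glycogen genes. Leaving out 1 library gave 3 to 9 called glycogen genes. With the length offset aagr-1 (-0.08) and aagr-2 (0.09) were among the glycogen genes that lost the call. In the reported fit the 4 largest falls were those of aagr-4 (-1.86), the glycogen phosphorylase gene pygl-1 (-1.70), the glycogen debranching enzyme gene agl-1 (-1.64) and the pyruvate carboxylase gene pyc-1 (-1.31). The count in the double mutant was 6 with the length offset and 19 with limma on log2(TPM + 1), where the median of all genes was itself shifted. It was 3 without replicate 3 of the double mutant at 52 h, where 3624 of 16630 genes were called. Under the length offset aagr-4, pygl-1 and agl-1 kept their calls for time in the double mutant (-1.11, -1.01 and -0.45), and pyc-1 did not (-0.29, edgeR adjusted p = 0.249). No gene of the list passed for the interaction in the reported edgeR fit or by DESeq2. With the length offset aagr-2 (1.39, edgeR adjusted p = 0.00754) and D1005.2 (0.65, edgeR adjusted p = 0.0482) were called higher for it. Without replicate 1 of the double mutant at 60 h, 3 genes of the list passed for the interaction, all lower. That fit called 4670 of 16684 genes for the interaction.

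**Figure D4:**
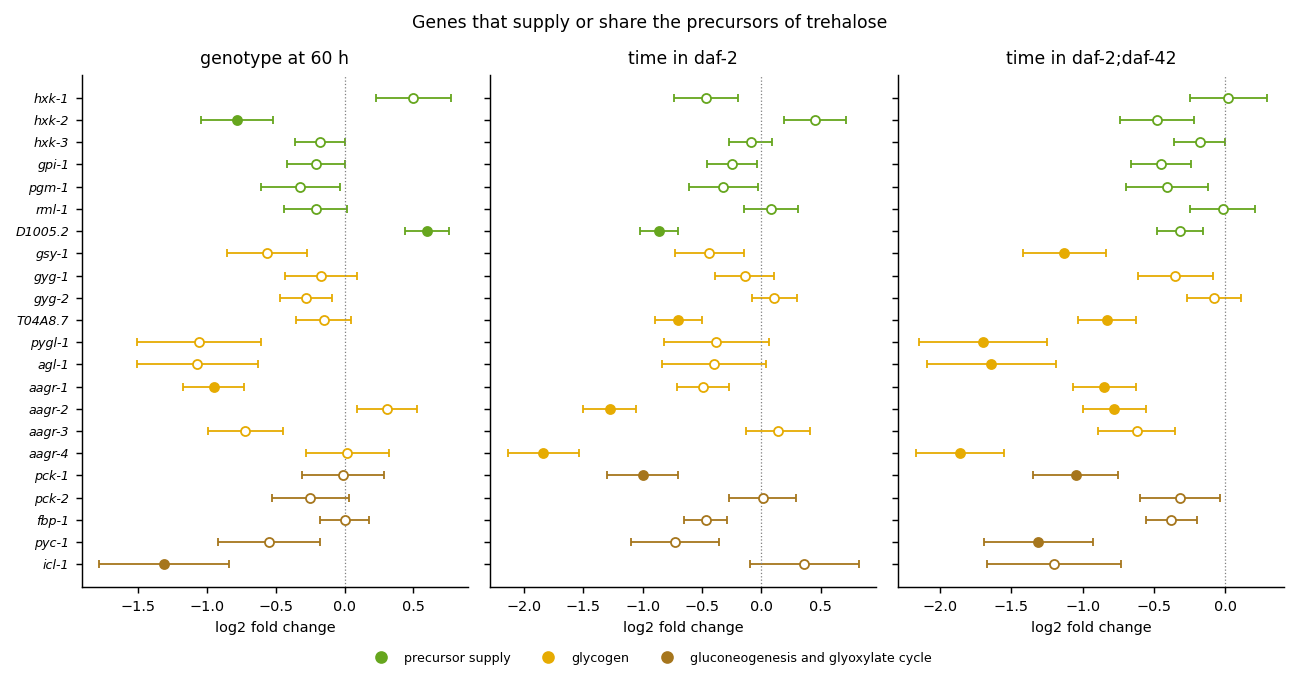
Log2 fold change (horizontal axis, with bars of 1 standard error) of the 22 tested genes that supply or share the precursors of trehalose, in 3 contrasts of the edgeR fit, coloured by step. Filled points passed an adjusted p of 0.05 over 16371 genes. For time in daf-2;daf-42 the 9 filled points all lie below 0, the lowest being aagr-4 at -1.86 and pygl-1 at -1.70.

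Genes with the most similar pattern were sought by Pearson correlation of log2 CPM over the 12 libraries, among the 9013 genes whose log2 CPM averaged 3 or more. The libraries share groups, so these values mostly follow the 4 group means, and they are descriptions. For tps-1 they were mus-101 (r = 0.991), gldi-3 (r = 0.986) and ric-8 (r = 0.986). For tps-2 they were F22E12.1 (r = 0.981), Y54F10BM.9 (r = 0.977) and tpp-2 (r = 0.974). For gob-1 they were hmit-1.1 (r = 0.962), ipgm-1 (r = 0.952) and aipl-1 (r = 0.951), and for tre-2, the trehalase gene with the highest mean TPM, they were hpo-28 (r = 0.947), T19C3.4 (r = 0.944) and F17H10.1 (r = 0.943). Among the members themselves the most opposed pair was tre-3 and tre-5 (Pearson r = -0.89, Spearman rho = -0.92).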

How the data were processed

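The authors deposited 1 table per library with an estimated count and a TPM value for each of 36172 transcripts, per the file headers. The values came from kallisto 0.46.1 with WBcel235, per the submitters' processing notes. Transcripts were summed to 22113 genes with the Ensembl 115 annotation of WBcel235, where 31502 matched by identifier, 4581 by sequence name and 89 did not match. Gene sums of the deposited estimated counts were rounded. edgeR 4.0.16 (R 4.3.3) fitted 4 group means to 12 libraries (TMM, filterByExpr, quasi-likelihood test), and 16371 genes were tested. A gene was called at a Benjamini-Hochberg adjusted p under 0.05 over all of them. Values written for genotype are the double mutant minus daf-2, and values for time are 60 h minus 52 h. The deposited TPM values were used for levels per length and for an alternative test in limma 3.58.1 on log2(TPM + 1), with genes at a mean TPM of at least 1.

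The members, lists and naming rule were chosen with earlier results of these data known. All 8 members are named. Of the pathway list the 4 largest called changes per contrast are named, with rml-1, hxk-1 and pck-2 beside them as more abundant genes that were not called. For likeness 3 genes are named for each synthase, the phosphatase and the leading trehalase. The neighbours of the members were chosen by position. Alternatives were RLE and upper-quartile scaling, no count filter, DESeq2 1.42.0, a length offset (lowess, span 0.3), TPM tests, a minimum fold change of 1.5, models of only the groups compared, a replicate block and leaving out each library. The code was tested on simulated counts. Nothing in the labels says that replicates came from separate cultures, so p-values measure the spread between these samples. Same-numbered libraries deviated together, with every correlation over 0.1, for genotype at 52 h (0.136 to 0.249) and for time in the double mutant (0.109 to 0.408), and in no other pair of groups. This pairing comes from the data and not from the labels, and it is uncertain. For time in the double mutant, replicate 3 at 52 h and replicate 1 at 60 h correlated at 0.294, above some same-numbered pairs. Sequences of the members were not used here.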

Additional observations from a re-analysis of the deposited data

Results flagged for a closer look

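The change of tre-5 over time differed between the genotypes when that difference was tested directly. As a genotype by time interaction it was -1.66 on the log2 scale (SE 0.34, edgeR adjusted p = 0.0128). The rise was 4.42 in daf-2, from 1.663 ± 0.2679 to 35.55 ± 6.531 CPM (SD, n = 3), and 2.75 in the double mutant, from 1.143 ± 0.3358 to 7.673 ± 1.238 CPM. The groups at 60 h did not overlap. It was also called by DESeq2 (-1.65) and with the length offset (-1.23). The double mutant harvest at 60 h held live and dead L2d larvae, and the share of each is not given in the sources used here. Larval death and any difference in stage cannot be told apart from genotype there.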

How the results depend on the processing

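Of the 11 called member results, tre-5 kept its 4 calls in every setting run, and the only called results that changed sign were those of tps-1 under the length offset (0.214 for genotype at 60 h and 0.412 for time in the double mutant). No value that changed sign was called under its alternative. For genotype at 60 h, 1 member was called with the replicate block in a model of only those groups, which lost tps-1 (-0.89) and tps-2 (-1.48), and 2 with the block over 12 libraries, which lost tps-1 (-0.88). For time in daf-2, 1 was called at a minimum fold change of 1.5. For time in the double mutant, 2 were called with the replicate block, with only the groups compared and at a minimum fold change of 1.5, 1 with the length offset, 8 with limma at a TPM pseudocount of 1 or 0.1 and 7 without its filter. For the interaction, DESeq2 called 2, adding tps-2. The block over 12 libraries or in the groups alone ended no other call of the 11 than these, that of tps-1 over time in the double mutant (-0.83), and that of tre-3 over time in both genotypes (-0.52 in daf-2), and in the groups alone that of tre-2 in daf-2 (-0.62). Leaving out 1 library gave 2 to 3 called members for genotype at 60 h, 1 to 3 for time in daf-2, 2 to 4 for time in the double mutant and 1 to 3 for the interaction.

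Uncalled values changed sign with the length offset for genotype at 60 h in gob-1 (0.195), tre-1 (0.116) and tre-4 (0.047), for time in daf-2 in tps-1 (-0.081), for time in the double mutant in tre-1 (0.101) and tre-2 (0.061), and for the interaction in tps-1 (0.494), tre-1 (0.447) and tre-4 (0.141). On the TPM scale with a pseudocount of 1 (with and without the filter) and of 0.1 they did so for genotype at 60 h in tre-2 (-0.382 and -0.388) and tre-3 (-0.071 and -0.083), for time in daf-2 in tps-1 (-0.112 and -0.117), and for the interaction in gob-1 (-0.356 and -0.366), tre-2 (-0.165 and -0.169) and tre-3 (-0.310 and -0.341). Values near 0 also crossed it elsewhere: tre-2 for genotype at 60 h with RLE scaling and DESeq2 (-0.004 each), only the groups compared (-0.018) and their block (-0.012); tps-1 for time in daf-2 without the count filter (-0.012) and with the block in those groups (-0.029); and tre-1 for the interaction with upper-quartile scaling (0.031) and without the filter (0.023). With 1 library left out, signs changed for genotype at 52 h in tps-1 (-0.2 to 0.093), tps-2 (-0.263 to 0.049) and tre-4 (-0.292 to 0.126), for genotype at 60 h in gob-1 (-0.285 to 0.093) and tre-2 (-0.074 to 0.09), for time in daf-2 in tps-1 (-0.222 to 0.172) and tps-2 (-0.185 to 0.121), and for the interaction in gob-1 (-0.151 to 0.227), tre-1 (-0.08 to 0.09), tre-3 (-0.081 to 0.19) and tre-4 (-0.367 to 0.052). The cause of these changes was not tested.

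Over all genes, the 104 calls for genotype at 52 h became 269 with DESeq2, 208 with only the groups compared, 266 with their block, 212 with the length offset, 65 at a TPM pseudocount of 0.1 and 49 at a minimum fold of 1.5. The 5626 calls for genotype at 60 h became 2294, 500 and 1945 with only the groups compared, their block and the minimum fold, and that minimum left 3131 of 5688 for time in daf-2 and 2643 of 6720 for time in the double mutant. The 1558 interaction calls became 3412 with DESeq2, 921 with the replicate block, 2508 with the length offset, 1010 at a TPM pseudocount of 0.1 and 442 at the minimum fold. Leaving out 1 library gave 39 to 125, 3013 to 7587, 4429 to 6462, 3624 to 8359 and 643 to 4670 calls in the 5 contrasts. The low counts of tre-5 at 52 h limit the precision of its fold changes.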
